A study of Mus musculus with 17 samples.

Results

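10 genes of the ureteric bud epithelium were followed in bulk RNA sequencing of whole mouse kidneys at E12.5 (embryonic day): the keratins Krt7, Krt8, Krt18 and Krt19, the surface adhesion molecules Cdh1, Cdh16 and Epcam, and the markers Gata3, Calb1 and Emx2. They were taken by name, as the rows of the deposited expression table whose Ensembl identifiers carry these symbols, which gave 10 of 24432 rows. The rule used no measured value, but the genes were chosen with earlier results of these data known. All 10 genes passed the filter on low values.

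The kidneys came from mice of mixed strain in 3 genotypes. Ctnnb1-delta3 c/+;Foxd1 (5 libraries, called Foxd1-Cre here) combines 1 inducible activated allele of Ctnnb1, the beta-catenin gene, with a Cre driven in the stroma. Ctnnb1-delta3 c/+;Six2 (3 libraries, Six2-Cre) combines it with a Cre driven in nephron progenitors. The wild types (9 libraries) carry neither as far as the labels say. The ureteric bud is the target lineage of neither Cre in the study's design, so the comparisons ask how the transcripts of a neighbouring epithelium stand when beta-catenin is activated in the stroma or in the progenitors. Foxd1-Cre libraries were compared with wild-type replicates 1 to 6 and Six2-Cre libraries with wild-type replicates 7 to 9. Nothing in the labels says which libraries came from separate animals or litters, and p-values therefore measure the spread between these libraries, which may be technical.

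The ureteric bud is an outgrowth of the nephric duct that branches under signals from the surrounding mesenchyme and forms the collecting ducts and the ureter. It is an epithelium from the start, whereas nephron progenitors and stroma are mesenchymal. Simple epithelia hold a cytoskeleton of keratin filaments, in which a type II keratin (Krt7, Krt8) always pairs with a type I keratin (Krt18, Krt19). Cdh1 (E-cadherin) is the cadherin of epithelial adherens junctions, Cdh16 (kidney-specific cadherin) is an atypical cadherin of renal tubule epithelium, and Epcam is an epithelial adhesion molecule found on most simple epithelia. Gata3 and Emx2 are transcription factors needed for the nephric duct and the bud, and Calb1 (calbindin) is a calcium-binding protein used as a stain for the bud. None of these genes belongs to the bud alone: Cdh1, Cdh16, Epcam and Krt8 are also made by nephron epithelium, keratins by mesothelium, and Gata3 by sympathetic cells.

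The 17 libraries fell into a set of 11 (Foxd1-Cre and wild-type 1 to 6) and a set of 6 (Six2-Cre and wild-type 7 to 9), which differed in depth. Read steps in the values gave depths, in 1e6 reads per library, of 28.8 to 37.4 in the first set and 5.25 to 5.80 in the second, and the wild types of the sets differed at 65.7% of 14014 genes. Levels are therefore compared only within a set. At these depths Krt19 rested on 8 to 20 reads per library in the second set and 58 to 229 in the first. The other 9 genes rested on at least 76 reads in every library, the lowest being Krt7 in the second set. Each mutant has its own controls, and no library is shared between the comparisons. Transcripts of the bud itself (Ret, Wnt11, Hoxb7 and Wnt9b) were present in every group, with lowest library values between 2.04 FPKM (Wnt9b, Six2-Cre) and 30.6 FPKM (Hoxb7, wild types 1 to 6). The activated allele still gives a Ctnnb1 transcript, so a whole-gene value does not check the genotype. The bladder and late ureter gene Upk3a was at 0 throughout.

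Gene positions are on GRCm38 with GENCODE release M21. Krt7 (ENSMUSG00000023039, chr15:101411043-101430313, plus strand), Krt8 (ENSMUSG00000049382, chr15:101996698-102004482, minus strand) and Krt18 (ENSMUSG00000023043, chr15:102028180-102032027, plus strand) lie on chromosome 15. Krt8 and Krt18, although they encode partners of different type, point away from each other with start sites 23.7 kb apart. Krt19 lies apart from them with other type I keratins (ENSMUSG00000020911, chr11:100140810-100148665, minus strand). Cdh1 (ENSMUSG00000000303, chr8:106603351-106670246, plus strand) and Cdh16 (ENSMUSG00000031881, chr8:104601911-104624396, minus strand) share chromosome 8. Epcam is ENSMUSG00000045394 (chr17:87635979-87651129, plus strand) and Gata3 is ENSMUSG00000015619 (chr2:9857078-9890034, minus strand). Calb1 is ENSMUSG00000028222 (chr4:15881264-15908064, plus strand) and Emx2 is ENSMUSG00000043969 (chr19:59458372-59465357, plus strand). Krt7, Krt8, Gata3 and Emx2 overlap a transcript on the other strand, among them Emx2os. Whether the quantification used strand is not given in the sources used here, so part of their signal could belong to those transcripts. Gata3 also overlaps a protein-coding gene on its own strand, 9230102O04Rik, which strand would not separate.

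Promoter windows of 250 bases before to 50 bases after the start site were present in RefSeq (build GRCm38.p6) for 6 of the 10 genes: Krt7, Krt8, Krt18, Epcam, Gata3 and Emx2. The windows were searched on both strands for the E-box CAGGTG, the site class bound by Snail, Zeb and other E-box factors, for CTTTGA, the core of the TCF/LEF site through which beta-catenin acts, and for AACCGG, part of the Grainyhead-like site. The motifs do not overlap each other in sequence. The 4 windows that hold an E-box are printed because 3 of these genes, Krt8, Krt18 and Epcam, were lower in Six2-Cre kidneys. The windows are those of Krt7 (chr15:101412153-101412452, plus strand), Krt8 (chr15:102004293-102004592, minus strand), Krt18 (chr15:102027966-102028265, plus strand) and Epcam (chr17:87635729-87636028, plus strand). Each is written in the direction of its gene, with the E-box in capitals as CAGGTG or, where it reads on the other strand, as CACCTG.
Krt7: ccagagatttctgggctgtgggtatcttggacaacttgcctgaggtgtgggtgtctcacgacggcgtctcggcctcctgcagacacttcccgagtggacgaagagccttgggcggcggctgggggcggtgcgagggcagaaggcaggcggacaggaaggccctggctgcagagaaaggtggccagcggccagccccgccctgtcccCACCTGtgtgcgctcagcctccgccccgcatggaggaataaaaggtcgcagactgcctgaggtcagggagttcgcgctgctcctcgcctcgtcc
Krt8: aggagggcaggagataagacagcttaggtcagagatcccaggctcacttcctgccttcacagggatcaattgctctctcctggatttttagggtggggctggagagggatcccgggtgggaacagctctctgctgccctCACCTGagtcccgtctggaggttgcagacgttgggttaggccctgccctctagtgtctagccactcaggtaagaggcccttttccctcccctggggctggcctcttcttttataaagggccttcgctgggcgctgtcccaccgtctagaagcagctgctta
Krt18: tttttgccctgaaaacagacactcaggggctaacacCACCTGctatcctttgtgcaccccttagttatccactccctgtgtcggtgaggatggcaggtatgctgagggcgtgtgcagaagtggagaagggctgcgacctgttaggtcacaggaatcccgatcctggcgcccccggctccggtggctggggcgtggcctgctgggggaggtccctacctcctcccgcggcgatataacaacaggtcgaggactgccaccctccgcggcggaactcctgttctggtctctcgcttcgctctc
Epcam: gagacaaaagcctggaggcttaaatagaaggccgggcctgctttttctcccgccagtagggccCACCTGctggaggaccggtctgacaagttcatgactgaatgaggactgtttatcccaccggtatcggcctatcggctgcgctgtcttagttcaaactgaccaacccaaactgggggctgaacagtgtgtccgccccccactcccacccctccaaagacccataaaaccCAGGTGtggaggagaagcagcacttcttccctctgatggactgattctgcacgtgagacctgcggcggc
Counted from the start site, the E-box stood at -44 in Krt7, -111 in Krt8 and -214 in Krt18, and Epcam held a pair, at -187 and -19. The windows of Gata3 and Emx2 held none. CTTTGA and AACCGG were in none of the 6 windows. Over all 32851 promoter windows of this length, 20.2% held CAGGTG, 16% CTTTGA and 6.8% AACCGG. The matches describe letters in a window and say nothing about a factor.

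In the wild-type kidneys of the first set the 10 genes spanned from Calb1 at 62.2 ± 5.95 FPKM (SD, n = 6) to Krt19 at 1.81 ± 0.676 FPKM (SD, n = 6). FPKM, fragments per kilobase of transcript scaled to depth, is a level per length, so genes can be ranked on it. Epcam followed Calb1 at 42.9 ± 2.64, and then came the partners Krt8 at 33.6 ± 2.47 and Krt18 at 31.3 ± 3.17. Within these wild-type libraries the ratio of Krt8 to Krt18 ran from 0.992 to 1.16. Emx2 (20.03 ± 2.09) stood above Cdh16 (15.7 ± 2.79). Cdh1 (10.6 ± 2.51), Gata3 (10.1 ± 0.586) and Krt7 (9.77 ± 1.15) could not be ordered among themselves. Wild types 7 to 9 began and ended with the same genes, Calb1 at 71.9 ± 2.99 FPKM and Krt19 at 1.61 ± 0.550 FPKM (SD, n = 3), while Gata3 (23.1 ± 0.826) stood level with Krt8 (23.0 ± 0.579). Most keratin transcripts other than the 4 named were scarce: of 13 further keratins only Krt10 and Krt23 passed the filter. Their wild-type means in the first set, 4.47 FPKM for Krt10 and 7.66 FPKM for Krt23, were above that of Krt19.

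**Figure D1:**
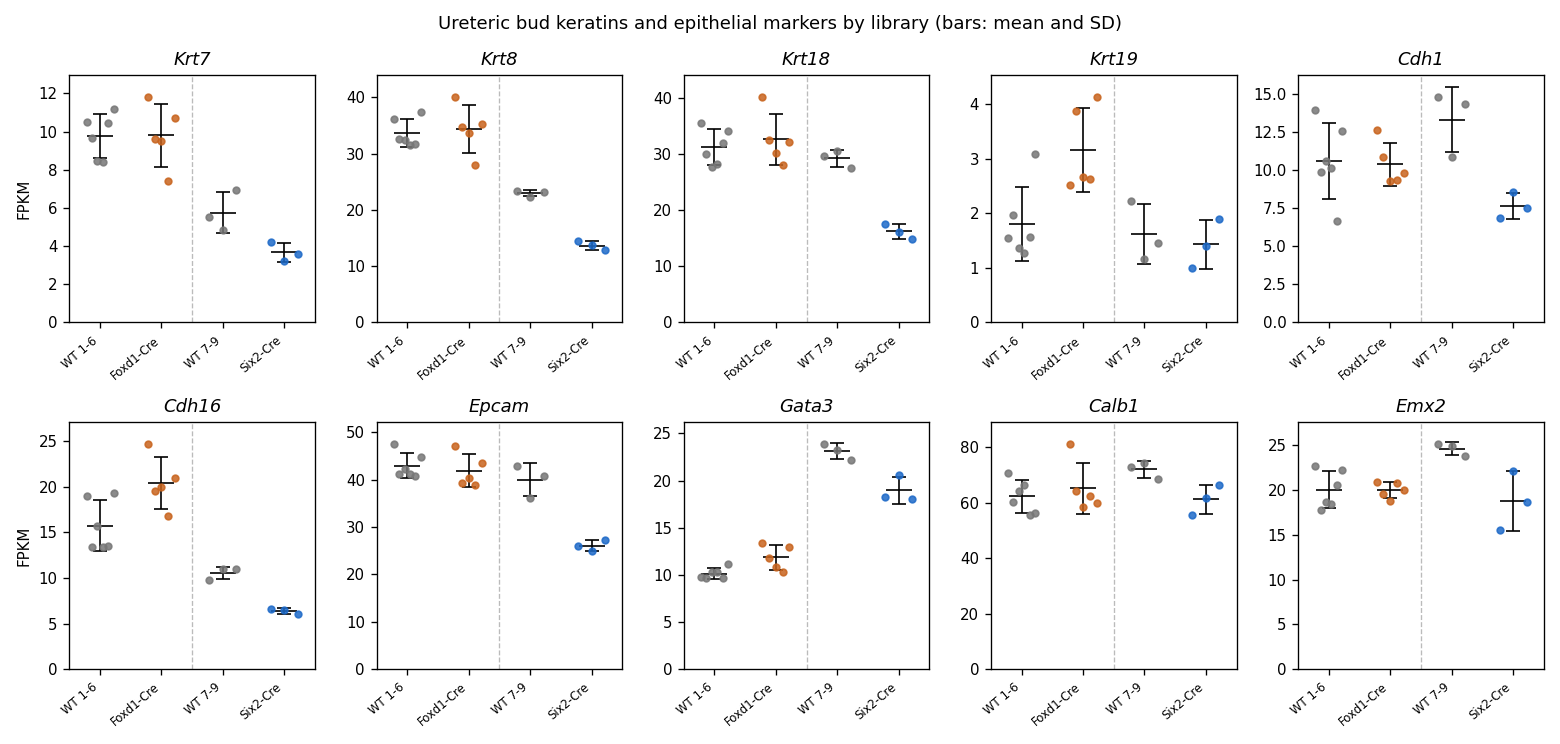
Expression of the 10 genes in each library, in FPKM, 1 panel per gene. Points are libraries, bars are the group mean and SD, and the dashed line separates the deeper set (wild types 1 to 6, Foxd1-Cre) from the shallower set (wild types 7 to 9, Six2-Cre). In the shallower set the Six2-Cre points lie below the wild-type points for every gene but Krt19. How common such separation is over all genes was not counted.

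Activation of beta-catenin in nephron progenitors went with lower bud keratin and epithelial transcripts. In Six2-Cre kidneys 6 of the 10 genes fell, none rose, and all 10 estimates were below 0, with a median log2 change of -0.56 on the log2(FPKM + 1) scale against -0.01 for all genes tested. Across the transcriptome 5.84% of 13828 genes were lower and 7.93% higher at an adjusted p under 0.05 (limma, Benjamini-Hochberg over all genes). The genes that fell were Krt8, Krt18, Cdh1, Cdh16, Epcam and Gata3. For 9 of the 10 genes every Six2-Cre library lay below every wild-type library, the exception being Krt19. The share of all genes separated in this way was not counted, so this count has no background. In whole-organ RNA, fewer bud cells in the sample and less RNA per bud cell cannot be told apart.

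Both partners of the main keratin pair fell. Krt18 measured 17.7, 16.2 and 14.8 FPKM in the Six2-Cre libraries and 29.6, 30.6 and 27.6 FPKM in wild types 7, 8 and 9. The groups were far apart, and the mutant mean was 55.5% of the wild-type mean, a log2 change of -0.81 ± 0.08 (SE, adjusted p = 0.00213, limma). Krt8 measured 14.4, 13.7 and 12.8 FPKM against 23.4, 22.3 and 23.2 FPKM. Its mutant mean was 59.4% of the wild-type mean, with a log2 change of -0.71 ± 0.06 (SE, adjusted p = 0.00166, limma). Krt8 had the smallest p-value of the 10 genes in this comparison.

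The other keratins of the group were less certain. Krt7, a second type II keratin found in ducts and urothelium, measured 4.22, 3.23 and 3.61 FPKM in Six2-Cre and 5.52, 4.83 and 6.93 FPKM in wild types. The groups did not overlap, yet the log2 change of -0.52 ± 0.14 did not pass after adjustment (SE, adjusted p = 0.064, limma). Krt19, a type I keratin that lacks the tail domain of its relatives, measured 1.00, 1.40 and 1.90 FPKM against 2.23, 1.16 and 1.46 FPKM. Its groups overlapped, with a log2 change of -0.10 ± 0.21 (SE, adjusted p = 0.794, limma), and at 8 to 20 reads per library a difference was not detectable at this depth.

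The adhesion molecules fell with the keratin pair. Epcam measured 26.1, 24.9 and 27.2 FPKM in Six2-Cre and 42.9, 36.2 and 40.9 FPKM in wild types, 65.2% of the wild-type mean and a log2 change of -0.60 ± 0.07 (SE, adjusted p = 0.00503, limma). Cdh16 measured 6.66, 6.55 and 6.04 FPKM against 9.73, 10.9 and 10.98 FPKM, 60.8% of the wild-type mean and a log2 change of -0.64 ± 0.08 (SE, adjusted p = 0.00483, limma). Both genes had tight mutant groups well below the controls. Cdh1 measured 6.89, 8.58 and 7.55 FPKM against 14.8, 10.9 and 14.4 FPKM, 57.5% of the wild-type mean and a log2 change of -0.72 ± 0.13 (SE, adjusted p = 0.0203, limma). Wild-type replicate 8 stood nearest to the mutants. The Cdh1 call ended when Six2-Cre replicate 1 (adjusted p = 0.0727, limma) or 3 (0.0792), or wild-type replicate 7 (0.0684) or 9 (0.0627), was left out, while the calls of Krt8, Krt18, Cdh16 and Epcam held without any 1 of the 6 libraries.

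Of the bud transcription factors and calbindin, only Gata3 was called. Gata3 measured 18.3, 20.6 and 18.1 FPKM in Six2-Cre and 23.9, 23.3 and 22.2 FPKM in wild types, 82.1% of the wild-type mean and a log2 change of -0.27 ± 0.07 (SE, adjusted p = 0.0455, limma). This call was marginal: leaving out Six2-Cre replicate 1 or 3, or any 1 of the wild types, ended it (adjusted p between 0.073 and 0.137, limma), as did an analysis with libraries rescaled to the same sum (0.0616), no filter on low values (0.0569) or no variance trend (0.0623). Emx2 measured 15.5, 22.1 and 18.6 FPKM against 25.1, 24.9 and 23.7 FPKM. Six2-Cre replicate 2 was close to the wild types, and the log2 change of -0.39 ± 0.12 did not pass (SE, adjusted p = 0.0899, limma); without that library it did (0.039). Calb1 measured 55.7, 61.5 and 66.3 FPKM against 72.9, 74.3 and 68.5 FPKM, 85.1% of the wild-type mean, with a log2 change of -0.23 ± 0.07 that did not pass (SE, adjusted p = 0.0852, limma). The most abundant of the 10 transcripts was thus also the one with the smallest proportional difference after Krt19.

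Markers of other kidney compartments moved in the same libraries. The summed level of 6 nephron progenitor markers was 88.9 to 93.5 FPKM in Six2-Cre and 266 to 305 FPKM in wild types 7 to 9, and all 6 fell, among them Cited1 to 9.37% and Six2 to 22.2% of the wild-type mean. All 5 endothelial markers rose, with a sum of 144 to 153 FPKM against 67.0 to 83.8 FPKM. Of 6 stroma markers 3 rose (sum 481 to 514 against 423 to 452 FPKM), and of 6 sympathoadrenal and neuron markers 5 rose (sum 26.5 to 42.2 against 10.4 to 19.8 FPKM). Of 7 early nephron epithelium markers 4 rose, with a sum of 141 to 155 against 70.6 to 82.4 FPKM. The Wnt antagonist Dkk1 alone held much of the rise in the sum, at 52.4 to 58.9 against 8.11 to 9.12 FPKM. Dkk1 was at 635%, the Wnt ligand Wnt4 at 168%, Cdh6 (K-cadherin) at 153% and the Notch ligand Jag1 at 135% of the wild-type mean. Cdh1, Cdh16, Epcam and Krt8, which nephron epithelium also makes, were lower in these libraries. No marker of these 5 lists was at 0 in all Six2-Cre libraries. Gata3 is also made by sympathetic cells, whose markers Th and Dbh were higher in Six2-Cre and also in Foxd1-Cre. The Gata3 estimate was below 0 in Six2-Cre and, uncalled, above 0 in Foxd1-Cre. The part of these shifts in the keratin, adhesion and Gata3 results was not tested.

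**Figure D2:**
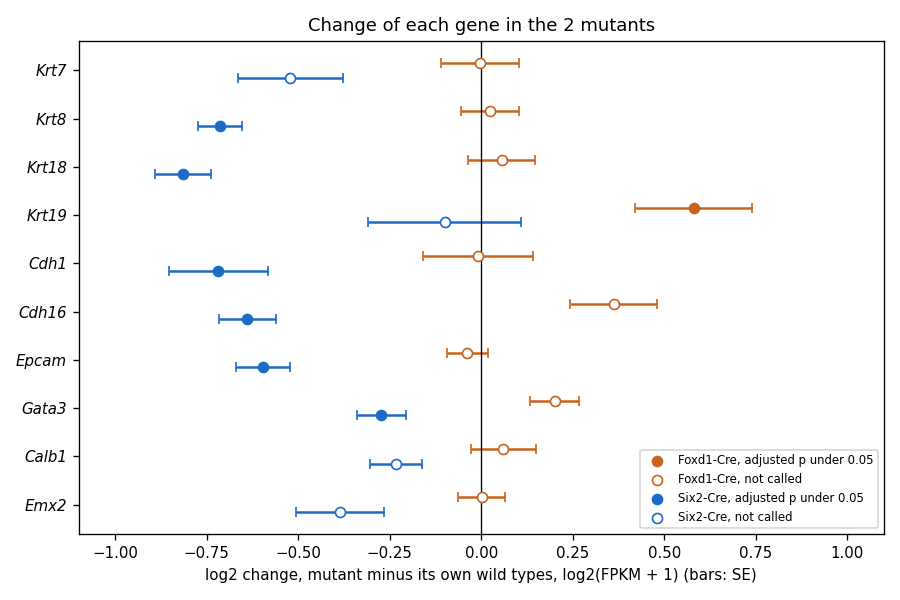
Log2 change of each gene in Foxd1-Cre and Six2-Cre kidneys against the wild types of the same set, on the log2(FPKM + 1) scale. Points are limma estimates, bars are 1 SE, and filled points passed an adjusted p of 0.05. The Six2-Cre estimates all lie left of 0, and the Foxd1-Cre estimates gather around 0 except for Krt19 and Cdh16.

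With beta-catenin activated in the stroma, calls among these transcripts were about as common as over all genes. In Foxd1-Cre kidneys 1 of the 10 genes rose (Krt19), none fell and 9 were not called. Their median log2 change was 0.04 against -0.01 for all genes tested, of which 8.45% of 13996 were higher and 4.82% lower. In each of the 10 genes the values of the groups overlapped, a share that was not counted over all genes. Markers of other compartments moved in these libraries. Of 6 stroma markers 3 fell, with a sum of 195 to 228 FPKM against 425 to 475 FPKM. Foxd1 was at 19.4% and Aldh1a2, a retinoic acid synthesis enzyme, at 35.3% of the wild-type mean. Most of the fall in the sum lay in these genes. Foxd1 was 15.0 to 24.3 against 92.4 to 109 FPKM and Aldh1a2 73.3 to 91.7 against 218 to 253 FPKM. Meis1 fell to 73.3%, and Pdgfra (98.4%), Pdgfrb (113%) and Tbx18 (120%) were not called. Of 6 nephron progenitor markers 4 fell (sum 270 to 308 against 344 to 441 FPKM), and of 5 endothelial markers 2 rose (sum 102 to 133 against 84.6 to 112 FPKM). Of 7 early nephron epithelium markers 3 rose, Cdh6 to 239%, Tmem100 to 235% and Wnt4 to 179%, and 2 fell (sum 78.0 to 99.9 against 57.2 to 77.1 FPKM). Of 6 sympathoadrenal and neuron markers 2 rose, Th and Dbh, and 1 fell, Stmn2 (sum 11.97 to 20.4 against 16.2 to 19.6 FPKM). No marker of these 5 lists was at 0 in all Foxd1-Cre libraries, and the part of these shifts in the values that follow was not tested.

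Krt8 measured 40.02, 34.7, 33.7, 28.1 and 35.3 FPKM in Foxd1-Cre replicates 1 to 5, and 31.5, 32.5 and 37.4 FPKM (lowest, median and highest) in wild types 1 to 6. The mutants lay on both sides of the controls, with a log2 change of 0.02 ± 0.08 (SE, adjusted p = 0.889, limma). Krt18 measured 40.2, 32.7, 30.2, 28.1 and 32.3 FPKM against 27.8, 31.0 and 35.6 FPKM, a log2 change of 0.06 ± 0.09 (SE, adjusted p = 0.762, limma). Krt7 measured 11.8, 9.61, 9.53, 7.39 and 10.7 FPKM against 8.39, 10.1 and 11.2 FPKM, and its mutant mean was 100% of the wild-type mean (adjusted p = 0.991, limma). In all 3 keratins Foxd1-Cre replicate 1 was the highest mutant library and replicate 4 the lowest.

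Krt19 was the gene that rose. It measured 2.52, 3.88, 2.68, 2.62 and 4.13 FPKM in Foxd1-Cre and 1.28, 1.56 and 3.10 FPKM (lowest, median and highest) in wild types 1 to 6. Every mutant library stood above 5 of the 6 wild types, and wild-type replicate 6 stood among the mutants. The mutant mean was 175% of the wild-type mean, a log2 change of 0.58 ± 0.16 (SE, adjusted p = 0.0344, limma). The call was not stable: leaving out Foxd1-Cre replicate 2, 3 or 5, or 1 of the wild-type replicates 1, 3, 4 and 5, ended it (adjusted p between 0.0505 and 0.0911, limma).

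Mesothelial transcripts, another source of Krt19, varied between the same libraries. Upk3b, a uroplakin of mesothelium, measured 1.71, 3.09, 1.34, 3.04 and 3.65 FPKM in Foxd1-Cre replicates 1 to 5 and 0.106, 2.03, 0.157, 0.835, 0.146 and 1.40 FPKM in wild types 1 to 6. It rose by 1.07 ± 0.30 on the log2 scale (SE, adjusted p = 0.0361, limma). Its highest values were in Foxd1-Cre replicates 5 and 2, the libraries with the most Krt19. Foxd1-Cre replicate 4 had nearly as much Upk3b as replicate 2, with Krt19 at only 2.62 FPKM. Wild-type replicates 6 and 2 had the most Krt19 and the most Upk3b of the controls. The summed level of the 6 mesothelium and gonad markers was 2.74 to 7.24 FPKM in Foxd1-Cre and 0.802 to 4.15 FPKM in wild types. Of these 6, 2 were tested and 1 was called, and none was at 0 in any of the 11 libraries. The mesothelial marker Msln, too low to test, was alike in both groups, at 0.154 to 0.392 FPKM in Foxd1-Cre and 0.135 to 0.364 FPKM in wild types. Upk1b, a uroplakin of urothelium and mesothelium that was too low to test, was 0.198 to 0.815 FPKM in Foxd1-Cre and 0 to 0.147 FPKM in wild types. The part of mesothelium in the Krt19 result was not tested.

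The adhesion molecules of Foxd1-Cre kidneys were not called, with Cdh16 nearest. Cdh16 measured 24.7, 19.6, 20.01, 16.8 and 21.0 FPKM against 13.4, 14.6 and 19.3 FPKM (lowest, median and highest), 130% of the wild-type mean. Its log2 change of 0.36 ± 0.12 missed the threshold (SE, adjusted p = 0.0713, limma), and it passed without Foxd1-Cre replicate 4 (0.0459), wild-type replicate 1 (0.0447) or wild-type replicate 6 (0.037), and with all 9 wild types as controls (0.0238). Cdh1 measured 12.6, 10.9, 9.29, 9.34 and 9.84 FPKM against 6.65, 10.4 and 14.0 FPKM, a log2 change of -0.01 ± 0.15 (SE, adjusted p = 0.981, limma). Its wild types were the more scattered group. Epcam measured 47.2, 39.3, 40.4, 38.9 and 43.5 FPKM against 40.7, 41.7 and 47.5 FPKM, a log2 change of -0.04 ± 0.06 (SE, adjusted p = 0.737, limma).

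The remaining bud markers were also not called in Foxd1-Cre. Gata3 measured 13.3, 11.8, 10.8, 10.3 and 13 FPKM against 9.65, 10.04 and 11.2 FPKM, with 3 mutant libraries above all wild types and a log2 change of 0.20 ± 0.07 (SE, adjusted p = 0.0717, limma). It passed without Foxd1-Cre replicate 4 (0.0276). Calb1 measured 81.0, 64.1, 58.3, 62.4 and 59.8 FPKM against 55.5, 62.2 and 70.7 FPKM, a log2 change of 0.06 ± 0.09 (SE, adjusted p = 0.732, limma), and the first mutant library stood well above the other 4. Emx2 measured 20.9, 19.5, 18.8, 20.8 and 19.96 FPKM against 17.7, 19.6 and 22.6 FPKM, a log2 change of 0.00 ± 0.07 (SE, adjusted p = 0.993, limma). In Emx2 the mutants lay wholly within the range of the wild types.

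The genotypes differed in their effect on the bud genes. The difference between the effects (Foxd1-Cre effect minus Six2-Cre effect, a contrast over all 17 libraries with each mutant against its own wild types) was above 0 for all 10 genes and passed for 6. The background was 5.76% of 13810 genes higher and 5.24% lower, and the median difference was 0.62 for the 10 genes and 0.01 for all genes. Cdh16 had the widest difference, 1.00 ± 0.14 on the log2 scale (SE, adjusted p = 0.000137, limma), with an estimate of 0.36 in Foxd1-Cre and -0.64 in Six2-Cre. Krt18 (0.87 ± 0.12, adjusted p = 8.78e-05, limma) and Krt8 (0.74 ± 0.10, adjusted p = 7.22e-05) followed. Epcam differed by 0.56 ± 0.09 (adjusted p = 0.00138), Gata3 by 0.47 ± 0.09 (adjusted p = 0.00324) and Cdh1 by 0.71 ± 0.20 (adjusted p = 0.0304, limma). Krt7 (adjusted p = 0.0862), Emx2 (0.11), Calb1 (0.114) and Krt19 (0.124) did not pass. Because each genotype was sequenced in its own set, genotype and set cannot be told apart in this contrast beyond what the wild types of each set remove.

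Wider lists of bud and epithelial genes, also chosen with earlier results of these data known, were examined in the same way. Of 21 epithelial junction and polarity genes, 11 fell and none rose in Six2-Cre (median -0.48), and 2 fell and none rose in Foxd1-Cre (median -0.04). The 4 with the smallest p-values in Six2-Cre were the tight junction claudins Cldn4 (43.2% of the wild-type mean), Cldn6 (63.4%) and Cldn7 (64%), and Esrp1, an epithelial splicing regulator (64.7%). In Foxd1-Cre the called genes were Marveld2 (tricellulin), at 77.8% of the wild-type mean, and the polarity gene Crb3, at 84%.

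The ureteric tip, where branching takes place, was mixed in both genotypes. Of 11 tip genes, 5 fell and 1 rose in Six2-Cre (median -0.31), and 2 fell and 1 rose in Foxd1-Cre (median -0.11). In Six2-Cre, Gfra1 (co-receptor of Ret) was at 65.9%, Ros1 (a receptor tyrosine kinase) at 47.7% and Sox8 at 54.7% of the wild-type mean, and Spry1, an inhibitor of receptor tyrosine kinase signalling, rose to 137%. In Foxd1-Cre, Wnt11, a Wnt ligand of the tip, rose to 134%, while Etv4 (an effector of Ret signalling) fell to 76.5% and Sox8 to 79.8%. Several tip genes, Gfra1, Sox8 and Spry1 among them, are also made by mesenchyme.

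Of 9 trunk genes 5 could be tested. In Six2-Cre, Wnt9b, the bud ligand that induces nephrons, fell to 50.8% of the wild-type mean. In Foxd1-Cre, Shh rose to 174% and Hoxb7, a homeobox gene of duct and bud, fell to 86.4%. Of 9 nephric duct transcription factors 8 were tested: 5 fell and none rose in Six2-Cre, and 2 fell and 1 rose in Foxd1-Cre. In Six2-Cre, Pax2 was at 53.7%, Pax8 at 62.4% and the epithelial factor Grhl2 at 63.7% of the wild-type mean. In Foxd1-Cre, Pax8 was at 61.1% and Lhx1 at 43.4%, both also factors of the forming nephron, and Gata2 was at 237%. Krt23 was the only called gene of the further keratins, at 52.8% of the wild-type mean in Foxd1-Cre, with all 5 mutant libraries below all 6 wild types.

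**Figure D3:**
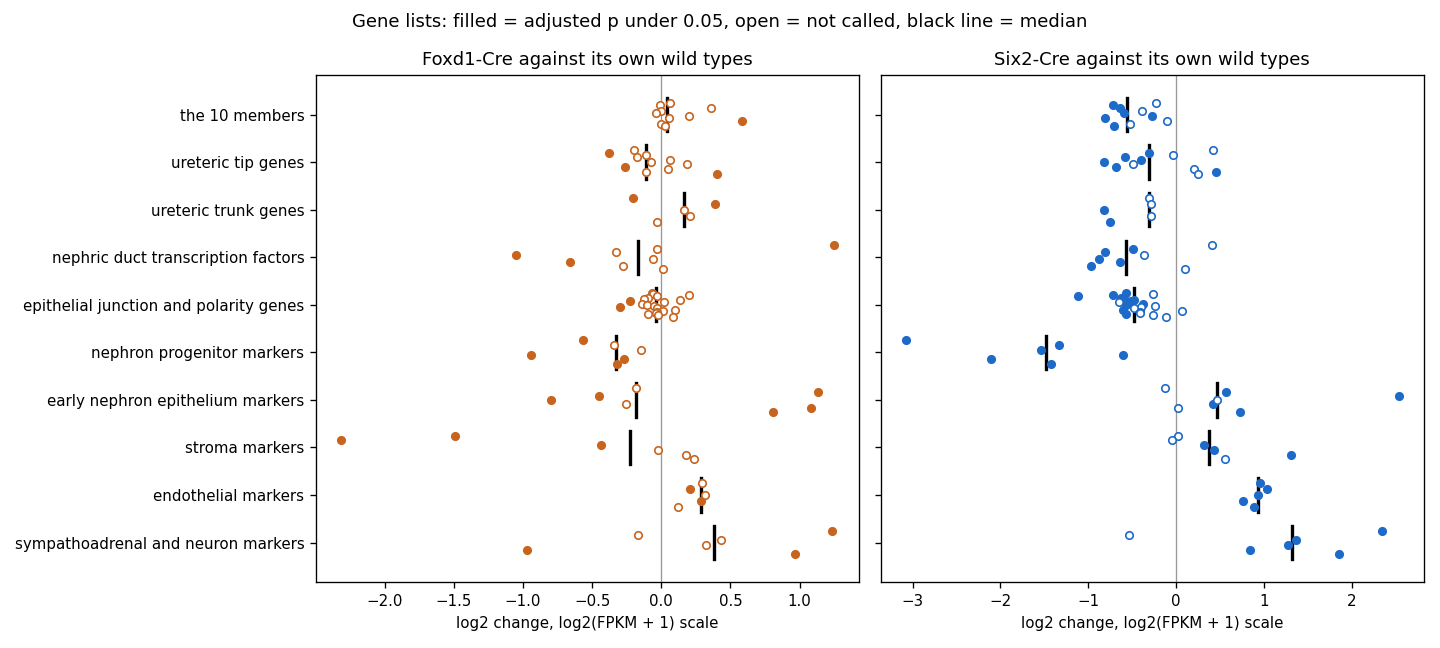
Log2 change of every tested gene in the bud, epithelial and other cell type lists, for Foxd1-Cre (left) and Six2-Cre (right), each against its own wild types. Filled points passed an adjusted p of 0.05 and black lines are list medians. In Six2-Cre the 10 genes and the junction list lie mostly left of 0, the progenitor list further left and the endothelial list right of 0.

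A scaling on epithelial content was added after the data had been seen. The FPKM values of each library were multiplied by a factor and then put on the log2(FPKM + 1) scale again. Genes of low level therefore shifted by less. The factor came from the library's mean log2(FPKM + 1) over the 21 junction and polarity genes, set against the mean of its library set. Before rescaling, these genes changed on average by -0.47 in Six2-Cre and -0.04 in Foxd1-Cre. Relative to these genes Krt18 (-0.36 ± 0.08, SE, adjusted p = 0.00656, limma) and Krt8 (-0.27 ± 0.07, adjusted p = 0.0154) remained lower in Six2-Cre, and none of the other 8 genes was called. Epcam went from -0.60 to -0.14 and Cdh16 from -0.64 to -0.22. Gata3 (0.18), Calb1 (0.23), Emx2 (0.07) and Krt19 (0.19) changed sign without being called. In Foxd1-Cre, Krt19 (0.61, adjusted p = 0.0319), Cdh16 (0.40, adjusted p = 0.00578) and Gata3 (0.24, adjusted p = 0.0219, limma) were higher relative to the junction genes. The difference between genotypes then passed for Krt18 (0.46), Cdh16 (0.62) and Krt8 (0.33). The share of all genes called on this scale was not counted, so these calls have no background. The junction genes themselves fell in Six2-Cre, so this scale gives a change relative to other epithelial transcripts and not a change per kidney.

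The balance between keratins was read from ratios of FPKM within each library. The ratio of Krt8 to its partner Krt18 was 1.05 ± 0.0545 in Foxd1-Cre (SD, n = 5) and 1.08 ± 0.0643 in its wild types (SD, n = 6; two-sided exact permutation p = 0.524, 0.7 after adjustment over the 6 ratio tests). It was 0.841 ± 0.0233 in Six2-Cre and 0.787 ± 0.0555 in its wild types (SD, n = 3 each; exact p = 0.2, adjusted 0.4). The ratio of Krt7 to Krt8, both type II, was 0.284 ± 0.0156 against 0.290 ± 0.0248 in the first set (exact p = 0.675) and 0.270 ± 0.0302 against 0.250 ± 0.0427 in the second (exact p = 0.7). Krt19 to Krt18, both type I, was 0.0983 ± 0.0259 in Foxd1-Cre and 0.0573 ± 0.0182 in its wild types (exact p = 0.0260, adjusted 0.156), and 0.0902 ± 0.0359 against 0.0552 ± 0.0187 in the second set (exact p = 0.2). None of the 6 ratio tests passed after adjustment, and 3 against 3 libraries cannot give an exact p below 0.1. Ratios from the sets were not compared with each other.

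**Figure D4:**
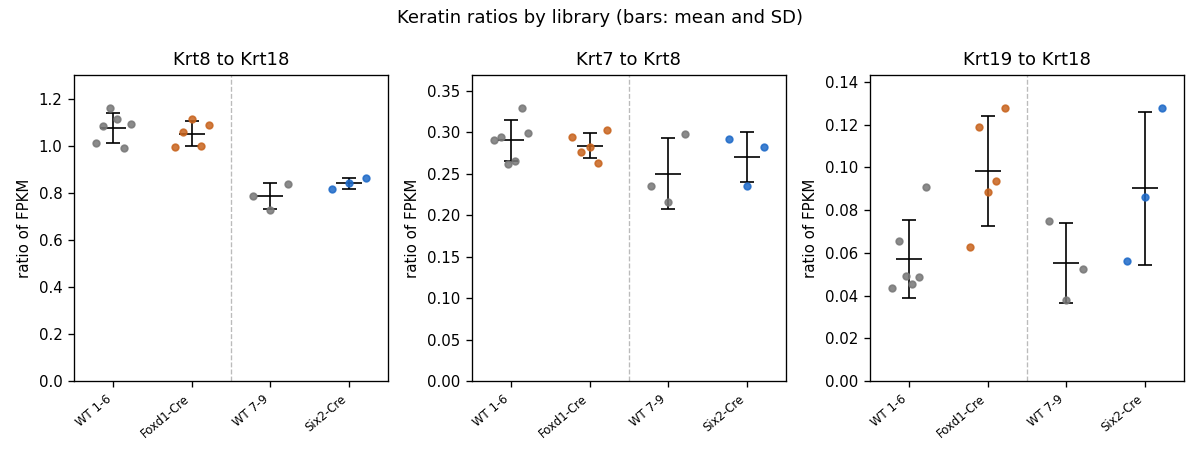
Ratios of keratin FPKM per library, 1 panel per ratio, with group mean and SD. All 3 ratios overlap between mutants and wild types in both sets; for Krt19 to Krt18 the Foxd1-Cre libraries begin at 0.0626 and the wild types of that set reach 0.0907.

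The genes also varied together among replicates of the same group. Each gene's log2(FPKM + 1) was centred on its group mean, and Pearson correlations were taken over the 17 libraries, which share any error of scaling and of dissection. The 45 pairs had a median r of 0.376 and ran from -0.255 to 0.851. The strongest pairs were Krt8 with Cdh16 (0.851), Krt8 with Krt18 (0.848) and Krt7 with Krt8 (0.789). Against the mean of the other 9 genes, Krt8 had the highest r (0.843), followed by Cdh16 (0.780) and Epcam (0.779). Krt19 (0.256), Calb1 (0.289) and Emx2 (0.406) had the lowest r. Over the 11 libraries of the deeper set alone the median r of the pairs was 0.586, and the highest values were those of Krt7 with Krt18 (0.893) and Krt7 with Krt8 (0.892).

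**Figure D5:**
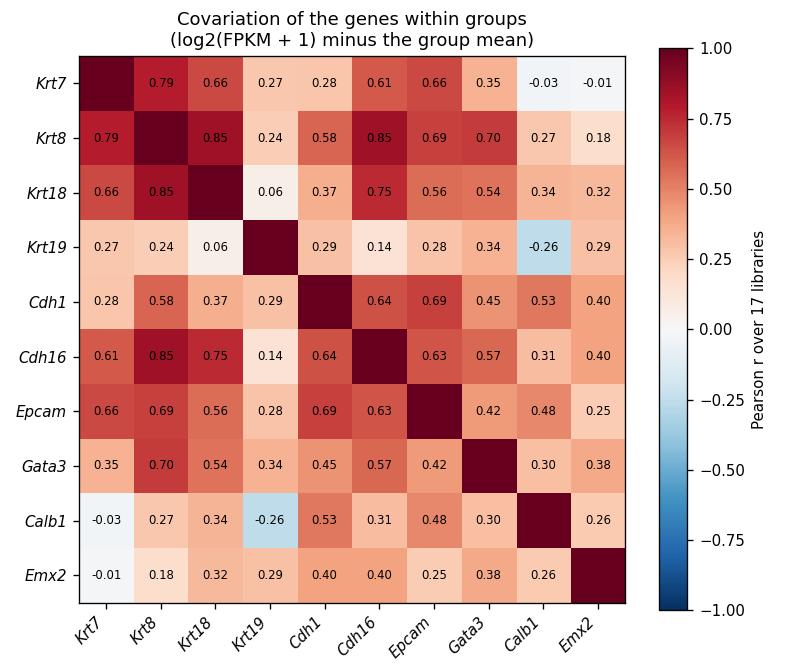
Pearson correlation of each pair of genes over 17 libraries after the group mean was removed, on the log2(FPKM + 1) scale. The block of Krt7, Krt8, Krt18, Cdh16 and Epcam is the reddest, and Krt19 and Calb1 are the palest rows.

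Among all other genes that passed the filter, those most like the mean of the 10 genes within groups included Fancd2 (r = 0.889), Grb7 (0.868), Lama5 (0.864) and Tfcp2l1 (0.857), over 17 libraries. When values were centred on the wild types of each set, so that the mutant changes stayed in, they were Lama5 (0.943), Rhpn2 (0.932), Fam20c (0.931), Prps2 (0.931) and Cds1 (0.930). Lama5, a laminin chain of epithelial basement membranes, was on both lists. In Six2-Cre it fell by 0.74 ± 0.11 on the log2 scale (SE, adjusted p = 0.0081, limma), and in Foxd1-Cre it was not called (-0.02 ± 0.07, adjusted p = 0.891).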

How the data were processed

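The authors deposited 1 table of FPKM values for 17 libraries. Per the submitters' processing notes, bcl2fastq 2.17.1.14 and Salmon were used with GRCm38 (mm10); the annotation, the gene-level summary and any scaling between libraries are not given in the sources used here. Read counts were not used here, so depth was read from the smallest steps between FPKM values, which covers counting error only. Per the labels' protocols, kidneys were dissected into RNAlater and their RNA purified on RNeasy Micro columns.

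Identifiers were matched to GENCODE release M21. The filter asked for 1 FPKM or more in 3 or more libraries (14014 genes) and left out genes at 0 throughout a set, and log2(FPKM + 1) was fitted with limma 3.58.1 (R 4.3.3, variance trend) within each library set. Fold changes on this scale understate those of low genes. Differences between the effects were tested by a t-test on the limma estimates, with squared standard errors added and Satterthwaite degrees of freedom. Calls are two-sided at an adjusted p under 0.05 (Benjamini-Hochberg over all genes tested). The fit was tested on simulated data. Keratin ratios were compared by exact permutation of libraries (scipy 1.17.1).

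Members and lists were chosen with earlier results of these data known. Genes named are the 10 members, up to 4 called genes with the smallest p-values per other list and comparison, and the 5 genes most like the members in each centring; other list genes named serve as markers of tissue or level. Some genes that this rule selects are not reported here. Alternatives covered the controls, pseudocount (0.1), filter, scaling, variance trend, replicate block and each library left out.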

Additional observations from a re-analysis of the deposited data

Results flagged for a closer look

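Calb1 in Foxd1-Cre replicate 1 measured 81 FPKM, while the other 4 Foxd1-Cre libraries lay between 58.3 and 64.1 FPKM. The gap to the nearest library was 0.743 of the range of the group, above the limit for 5 samples. Over 26 groups tested in this way 1 was marked, and chance marks about 1 in 20. That library was also the highest of its group for Krt7, Krt8, Krt18, Cdh1, Cdh16, Epcam, Gata3 and Emx2, which was not tested further.

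For 6 genes the effect in Foxd1-Cre differed from that in Six2-Cre by a test of the difference itself (t-test on the limma estimates, log2 scale, Foxd1-Cre effect minus Six2-Cre effect). The differences were 1.00 for Cdh16 (adjusted p = 0.000137), 0.87 for Krt18 (8.78e-05), 0.74 for Krt8 (7.22e-05), 0.71 for Cdh1 (0.0304), 0.56 for Epcam (0.00138) and 0.47 for Gata3 (0.00324). The Cdh1 difference lost its call when 1 of 5 libraries was left out: Foxd1-Cre replicate 1, Six2-Cre replicates 1 and 3, and wild types 7 and 9 (adjusted p from 0.0601 to 0.0846).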

How the results depend on the processing

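Log2 changes and counts of genes are given for the settings that moved them. With all 9 wild types as controls, which mixes the library sets, Foxd1-Cre had 337 genes lower (674 within the set) and 2 of the 10 members higher, Krt19 and Cdh16, and Calb1 (-0.0095), Emx2 (-0.0949), Gata3 (-0.1711) and Krt7 (0.2229) changed sign. Six2-Cre then had 2747 genes higher and 3697 lower, against 1097 and 808, Gata3 changed sign (0.4704), and Krt7 passed (-0.97, adjusted p = 0.00189, limma). Libraries rescaled to the same sum gave 408 genes lower in Foxd1-Cre and reversed the uncalled Cdh1 (0.0223) and Krt7 (0.0286). With the replicate number as a replicate block, Foxd1-Cre had 2 members higher, Krt19 and Cdh16 (0.42, adjusted p = 0.00503, limma), and Cdh1 (0.0422) and Krt7 (0.0337) changed sign. The labels do not say whether equal numbers mark a pairing. Deviations of same-numbered libraries correlated at 0.0224 to 0.0993 and no library was closest to its own number. Such low values do not exclude a pairing. Six2-Cre and its wild types share no numbers, so no block could be fitted there.

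Rescaling to the junction genes, chosen after seeing the data, gave 3 members higher in Foxd1-Cre and reversed Cdh1 (0.0307), Epcam (0.0035) and Krt7 (0.0346). It gave 2 members lower in Six2-Cre and reversed Calb1 (0.2341), Emx2 (0.0659), Gata3 (0.1792) and Krt19 (0.186). For the difference it gave 3 members higher and reversed Calb1 (-0.1317) and Emx2 (-0.0241). These counts of members have no background, because calls over all genes were not counted under this rescaling. The cause of these changes was not tested.

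With each library left out in turn, members higher in Foxd1-Cre ran from 0 to 3, Calb1 from -0.0196 to 0.098, Cdh1 from -0.1233 to 0.0703, Emx2 from -0.0313 to 0.0361, Krt18 from -0.0197 to 0.106, Krt7 from -0.0674 to 0.085 and Krt8 from -0.0321 to 0.0923, all uncalled. In Six2-Cre, genes higher ran from 545 to 887 and genes lower from 326 to 585, with fewer libraries, and the uncalled Krt19 from -0.2354 to 0.0617. Members lower in Six2-Cre ran from 4 to 7. The log2 difference of the ratio of Krt7 to Krt8 in Foxd1-Cre ran from -0.0575 to 0.0095, and that of Krt19 to Krt18 from 0.6826 to 0.94. Named genes outside the members kept their direction under every setting run for them, which leaves out the junction rescaling. Of such values, 19 of 394 without a left-out library and 102 of 506 with one no longer passed. In Six2-Cre and its wild types Krt19 rested on 8 to 20 reads and Krt7 on 76 to 152.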
